A study of Mus musculus with 12 samples.

Results

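The upstream shoulder of the H4K12ac promoter profile is a stretch upstream of the transcription start site (TSS). It was taken by position alone, starting 1000 bp upstream, at -1000, and ending at the last position before -200, its inner edge. It holds 800 of the 4001 positions of each profile. H4K12ac is acetylation of histone H4 at lysine 12, measured here by ChIP-seq (immunoprecipitation of chromatin followed by sequencing) on mouse brain nuclei that the file headers place in CA1, a subfield of the hippocampus. All mice were C57B/6JRj animals of wild-type (WT) genotype, and every group drank cyclodextrin at 18 g/L of water. The young group was 3 months old and had this vehicle only, the aged vehicle group was 20 months old and had the same vehicle, and the aged SAHA group was 20 months old and had 0.67 g/L of SAHA added. SAHA (vorinostat) inhibits histone deacetylases, and treatment was oral for 4 weeks. Neuronal and non-neuronal nuclei of each condition were profiled separately, the latter being called glia in the file headers. Each of these 6 groups had 1 ChIP library and 1 input library, 12 libraries in all, the input being chromatin sequenced without the antibody. The transgenic animals that the series title names were not analysed here. The sources used here do not say how nuclei were sorted or whether animals were pooled.

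At an active promoter, a stretch poor in nucleosomes lies just upstream of the TSS, between a first nucleosome downstream and a first nucleosome upstream. Acetylated histones sit on the nucleosomes on both sides, and their signal falls away with distance from the TSS. Lysine 12 of histone H4 is acetylated by histone acetyltransferases and cleared by histone deacetylases, the enzymes that SAHA inhibits. The upstream side can also carry nucleosomes of a second, divergent transcript, and an average over many promoters cannot show which of them do.

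Each file held a mean over many TSS, so no single promoter or gene could be read and no promoter sequence is shown. Signals are printed as deposited values times 1000. At a shoulder position the signal rested on about 303000 to 618000 reads (ChIP) or 179000 to 317000 reads (input), if the smallest unit of signal is 1 read. The counting error of a mean over the whole shoulder was then 0.0961% to 0.172%, and that of a mean over 100 bp was 0.158% to 0.282%. These errors cover counting only. With 1 library per group, age and SAHA differences have no replicate error and no test. Reads appeared to be counted over 300 bp, so neighbouring windows share reads and single nucleosomes are not resolved.

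H4K12ac stood above input at every shoulder position of all 6 ChIP libraries. This excess was not particular to the shoulder. The mean of the outermost 10% of positions at either end of the profile was 5.05 to 5.89 in ChIP and 4.03 to 4.15 in input libraries. In neuronal nuclei the mean ChIP signal over the shoulder was 8.32 in the young, 7.80 in the aged vehicle and 8.02 in the aged SAHA library. The non-neuronal means for these conditions were 10.1, 9.39 and 9.84. All 3 non-neuronal libraries were thus above all 3 neuronal ones, and within each population the young library was highest and the aged vehicle library lowest.

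The inputs differed less, with means of 4.05, 4.23 and 4.06 in neuronal and 4.195, 4.07 and 4.30 in non-neuronal nuclei, in the same order of conditions. Divided by its own input, the ChIP signal was 2.05, 1.84 and 1.98 times input in neuronal nuclei and 2.40, 2.31 and 2.29 times input in non-neuronal nuclei. The aged SAHA library was the lowest of the non-neuronal libraries on this scale, whereas the aged vehicle library was lowest for ChIP alone. Over the 6 pairs, the log2 ratio of ChIP to own input averaged 1.09 ± 0.15 (SD, n = 6), and all 6 were above 0. With an exact permutation test that flips the signs of the pairs (two-sided), p was 0.03125, the smallest that 6 pairs allow, and 0.03125 after Benjamini-Hochberg adjustment over the 3 tests of this kind. The 6 pairs come from 6 different groups, so this SD includes the differences between them.

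**Figure D1:**
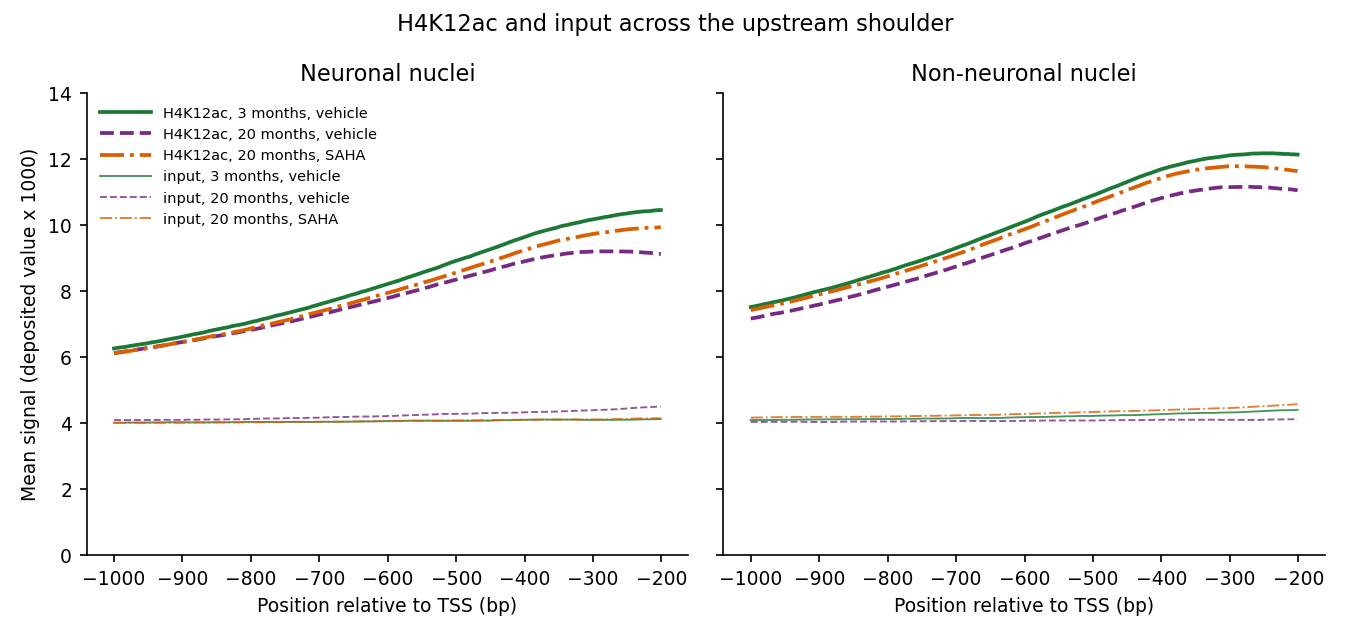
Mean signal (deposited value multiplied by 1000) against position relative to the TSS, over the shoulder, in neuronal (left) and non-neuronal nuclei (right). Thick lines are H4K12ac and thin lines the inputs, 1 library each and without error bars. H4K12ac climbs from between 6.11 and 7.51 at the outer edge to between 9.12 and 12.1 at the inner edge, while the inputs stay between 4.00 and 4.57 at these edges.

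The shoulder was a slope, not a level stretch. Cut into 8 windows of 100 bp, the ChIP signal rose over all 7 steps from one window to the next in each of the 6 libraries. From the outermost window, which starts at -1000, to the innermost, which starts at -300, it rose from 6.42 to 10.3 in young, from 6.28 to 9.18 in aged vehicle and from 6.27 to 9.85 in aged SAHA neuronal nuclei. In non-neuronal nuclei it rose from 7.74 to 12.2 in young, from 7.37 to 11.1 in aged vehicle and from 7.64 to 11.7 in aged SAHA libraries. The rise was therefore 60.9%, 46.3% and 57.1% in neuronal nuclei and 57.0%, 51.02% and 53.5% in non-neuronal nuclei, least in the aged vehicle library of each population.

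The inputs also rose across the shoulder, but by far less. Their rise was 2.18%, 8.55% and 2.96% in young, aged vehicle and aged SAHA neuronal nuclei, and 6.43%, 1.66% and 7.96% in the non-neuronal ones. The log2 rise of ChIP less that of its own input averaged 0.56 ± 0.079 (SD, n = 6), and was positive in 6 of 6 pairs. The same exact permutation test gave p = 0.03125, also after adjustment over the 3 tests. The aged vehicle neuronal library had the lowest net rise, 0.43, and the young neuronal library the highest, 0.66. The remaining 4 libraries lay between 0.51 and 0.61.

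The slope was not even along the shoulder. The gain from one window to the next grew inward from the outer edge, peaked in the middle and shrank toward the TSS. In neuronal nuclei the steepest step crossed position -500 in all 3 libraries, with gains of 0.714 in young, 0.563 in aged vehicle and 0.653 in aged SAHA nuclei. In non-neuronal nuclei it crossed -600 in the young library (0.804) and the aged vehicle library (0.705), and -500 in the aged SAHA library (0.784). The non-neuronal gains across -600 and across -500 were nearly equal, at 0.804 and 0.802 in the young library and 0.782 and 0.784 in the aged SAHA library, so this order of single steps is not a firm one.

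The inner end of the shoulder set the libraries apart. The last step, into the innermost window, was 0.410 in young and 0.343 in aged SAHA neuronal nuclei, still 57.3% and 52.5% of the steepest step. In aged vehicle neuronal nuclei it was 0.0991, or 17.6% of the steepest. Non-neuronal libraries gave 0.223, 0.104 and 0.0876 in young, aged vehicle and aged SAHA nuclei, or 27.7%, 14.7% and 11.2% of the steepest. The young and SAHA-treated neuronal profiles thus kept climbing to the inner edge, while the aged vehicle neuronal profile flattened there, within the range of the non-neuronal ones.

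**Figure D2:**
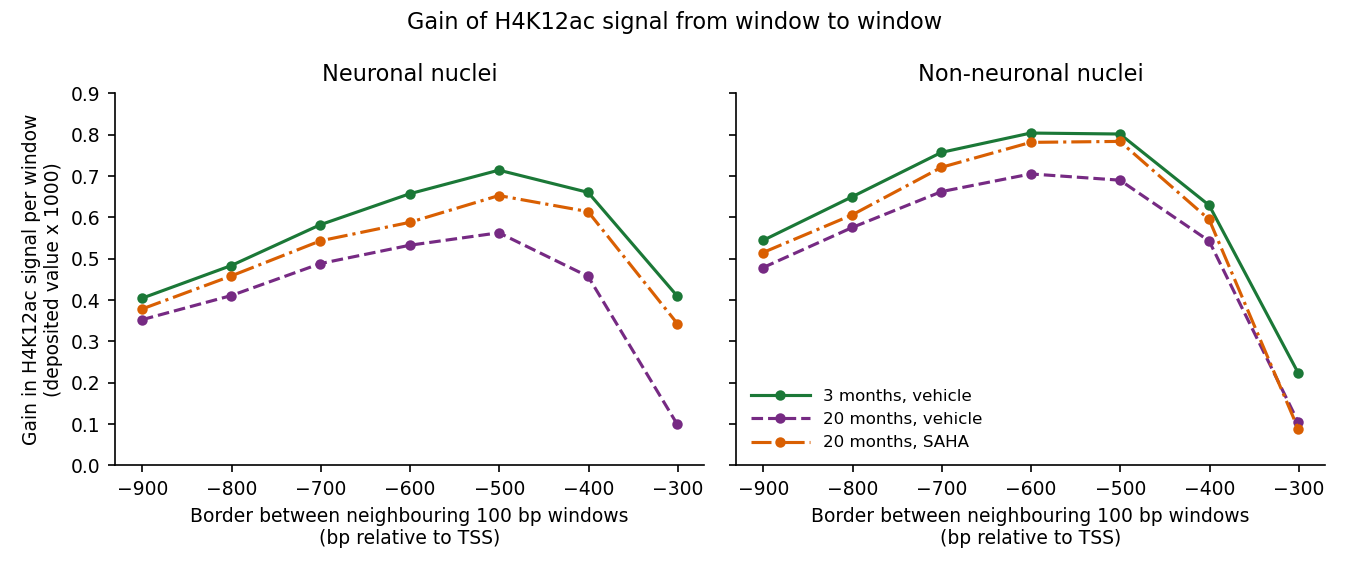
Gain in H4K12ac signal (deposited value multiplied by 1000) from each 100 bp window to the next, against the border between the windows, in neuronal (left) and non-neuronal nuclei (right). Each point is 1 step in 1 library, without replicates. At the last border, -300, the young and aged SAHA neuronal libraries still gain 0.410 and 0.343, and the other 4 libraries gain 0.0876 to 0.223.

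The highest position within the shoulder followed the same division. It was the inner edge itself in young neuronal nuclei and position -203 in aged SAHA neuronal nuclei, where the signal went on rising toward the TSS, so neither library had a maximum of its own within the shoulder. In aged vehicle neuronal nuclei it was -270, and in non-neuronal nuclei -252, -271 and -294 in young, aged vehicle and aged SAHA libraries. At the inner edge the signal was below these maxima by 0.870% in aged vehicle neuronal nuclei (counting error 0.110 percentage points). In non-neuronal nuclei it was below them by 0.343%, 1.01% and 1.29%, with counting errors of 0.0940, 0.115 and 0.121 percentage points. Each maximum was picked as the highest of 800 positions, which favours such a fall, so these errors are a scale and not a test.

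These maxima were broad and low. The stretch of the shoulder within 2% of its highest value was 174 positions long in aged vehicle neuronal nuclei and 153, 176 and 179 positions long in the non-neuronal libraries. It was 80 and 100 positions long in young and aged SAHA neuronal nuclei, where it was cut short by the inner edge. The slope over the last 50 positions was 0.201 and 0.124 per 100 bp in these 2 libraries. It was -0.157 in aged vehicle neuronal nuclei and -0.0842, -0.179 and -0.243 in young, aged vehicle and aged SAHA non-neuronal nuclei. The slope over the last 100 positions was -0.0718 in aged vehicle neuronal nuclei and 0.0225, -0.100 and -0.154 in young, aged vehicle and aged SAHA non-neuronal nuclei. The young non-neuronal library thus declined only over the shorter stretch. Over the last 50 positions, a plateau ending in a shallow decline was seen within the shoulder in 4 of 6 libraries. Past the inner edge the signal of these 4 libraries reached a low between -138 and -122 and then rose again. At -1 it was 9.78 in aged vehicle neuronal nuclei, above the shoulder maximum of 9.20. In young, aged vehicle and aged SAHA non-neuronal nuclei it was 13.2, 11.7 and 12.4, above shoulder maxima of 12.2, 11.2 and 11.8. Divided by own input and smoothed over 51 positions, the maxima of these 4 libraries lay between -321 and -280, and the other 2 again reached their highest value at the inner edge.

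The point midway up the slope of ChIP signal lay nearer to the TSS in neuronal nuclei, but not in every condition once input was divided out. The position where ChIP signal reached the middle between the 2 end windows was -574, -610 and -579 in young, aged vehicle and aged SAHA neuronal nuclei and -619, -627 and -625 in non-neuronal nuclei. The neuronal position was thus the nearer one in each condition, by 45, 17 and 46 bp. The mean difference was 36.0 ± 16.5 bp (SD, n = 3 pairs). The exact permutation p was 0.25, the smallest that 3 pairs allow. Adjusted over the 8 population measures tested here it was 0.286. With ChIP divided by own input and smoothed over 51 positions, the neuronal midway points were -576, -648 and -585 and the non-neuronal ones -648, -632 and -661, so the aged vehicle pair had the opposite order.

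The inputs had no such decline. Their highest shoulder position was the inner edge or lay within 7 bp of it in all 6 libraries. Being flatter throughout, 3 of them stayed within 2% of this highest value for longer than any ChIP library, over 479 positions in young and 387 in aged SAHA neuronal nuclei and 765 in aged vehicle non-neuronal nuclei. The other 3 did so over 72 to 116 positions. The input rise was greatest in aged vehicle neuronal, aged SAHA non-neuronal and young non-neuronal nuclei, where the last step (0.0893, 0.0868 and 0.0622) was also the steepest. The last step was the steepest in the aged SAHA neuronal input as well (0.0222), although its rise was only 2.96%. In RefSeq promoters of the GRCm38.p6 build (32851 sequences, which need not be the TSS averaged by the authors), the share of G and C was 50.4% over the innermost 50 bp of the shoulder and 56.4% from -50 to -1. The part of base composition in the input rise was not tested.

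H4K12ac was lower over the shoulder than over the same distances downstream, the mirrored stretch inside the gene. The downstream mean was 10.4, 9.28 and 10.1 in young, aged vehicle and aged SAHA neuronal nuclei and 11.98, 11.03 and 11.6 in non-neuronal nuclei. The shoulder therefore held 79.8%, 84.1% and 79.3% of the downstream signal in neuronal and 84.0%, 85.1% and 84.5% in non-neuronal nuclei. The mean log2 ratio was -0.27 ± 0.045 (SD, n = 6 libraries), below 0 in 6 of 6 libraries. The exact permutation test gave p = 0.03125, also after adjustment over the 3 tests. The inputs had a smaller ratio of the same sign, with a mean log2 of -0.067 ± 0.028 (SD, n = 6 inputs).

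Less of the signal above the outer ends of the profile lay in the shoulder than in its downstream mirror. The flank, here the mean of the 10% of positions farthest from the TSS at either end, was taken as the base. On this base, 24.4%, 26.1% and 24.1% of all signal above the flank lay in the shoulder in young, aged vehicle and aged SAHA neuronal nuclei. In non-neuronal nuclei the shares were 26.9%, 27.3% and 27.2%. The mirrored downstream stretch held 39.2% to 41.2% in the 6 libraries. This share needs no scaling between libraries, and the neuronal values in the shoulder were all below the non-neuronal ones. The inputs had the same order, with 5.19% to 16.0% in the shoulder and 46.5% to 66.0% in the mirrored stretch. Their signal above flank was small, the shoulder mean being 1.00 to 1.04 times flank.

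The age comparison set aged vehicle against young vehicle libraries. In neuronal nuclei H4K12ac signal over the shoulder was lower at 20 months, and the difference widened toward the TSS. Young nuclei had a ChIP mean of 8.32 and aged nuclei one of 7.80, which is -6.18% (log2 -0.092, counting interval at 95% from -0.097 to -0.087). By window the difference went from -2.28% in the outermost to -5.73% at -600 to -501 and -11.2% in the innermost. Outside the shoulder it was -1.18% from -2000 to -1001, -16.1% from -200 to -1 and -10.9% over the mirrored downstream stretch. The aged library was lower by 5% or more at 421 of 800 shoulder positions (52.6%), against 37% of all 4001 positions. The flattened inner end went with this, since the log2 rise across the shoulder was 0.69 at 3 months and 0.55 at 20 months (difference -0.14, interval -0.15 to -0.13).

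Division by input enlarged the neuronal age difference. The fold over own input was 2.05 and 1.84, or -0.15 in log2 (interval -0.16 to -0.15), and the aged input was higher by a log2 of 0.061. The input difference also grew inward, so that the difference over own input went from -4.11% in the outermost window to -17.95% in the innermost. Over its own flank and without input, the log2 difference of the ChIP libraries was -0.083. All 15 pairs of the 6 inputs differed by less over the shoulder (at most 0.085) than the 2 ChIP libraries did for ChIP alone (-0.092). The value over own flank was smaller than the largest input difference. Inputs hold no variation from the immunoprecipitation. The inverse of 1 unit of signal was 36400000 for the young and 65700000 for the aged ChIP library. These were the lowest and the highest of the 6 ChIP libraries. The scaling factor is not given, so these values need not be numbers of reads. They stand for relative depth only if all files were scaled alike. The part of depth in the difference was not tested.

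In non-neuronal nuclei the aged vehicle shoulder was also lower, by an amount that varied less along it. Its ChIP mean of 10.1 in young and 9.39 in aged nuclei made -6.70% (log2 -0.10, interval -0.104 to -0.096). The difference went from -4.83% in the outermost window to -6.75% at -600 to -501 and -8.44% in the innermost. Outside the shoulder it was -3.75% from -2000 to -1001, -10.2% from -200 to -1 and -7.91% over the mirrored downstream stretch. A loss of 5% or more was found at 723 of 800 shoulder positions (90.4%), against 46.6% of the whole profile. The non-neuronal difference was the larger of the 2 populations in the 6 outer windows, and the neuronal one in the 2 inner windows, from -400 on. This holds for ChIP alone and was not tested. Over own input the neuronal difference was the larger in 8 of 8 windows. As in neuronal nuclei, all 15 input pairs differed by less over the shoulder than the 2 non-neuronal ChIP libraries did for ChIP alone. Over its own flank and without input, the log2 difference of these ChIP libraries was -0.053, smaller than the largest input difference (0.085).

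Over own input the non-neuronal age difference was smaller and nearly level. The young fold was 2.40 and the aged one 2.31, or -0.055 in log2 (interval -0.062 to -0.047), with the aged input lower by a log2 of 0.046 (-0.046). By window it lay between -4.09% and -2.67%, with its smallest value in the innermost window. The log2 rise of ChIP was 0.65 in young and 0.59 in aged nuclei (difference -0.056), but the input rise differed by -0.066, so the rise over own input differed by 0.010 in the other direction.

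The SAHA comparison set aged SAHA against aged vehicle libraries, which are the same aged vehicle libraries as in the age comparison. In neuronal nuclei H4K12ac signal over the shoulder was higher with SAHA, and nearly all of the difference lay in the inner part of the shoulder. Vehicle gave a ChIP mean of 7.80 and SAHA one of 8.02, higher by 2.80% (log2 0.040, interval 0.036 to 0.044). The difference was -0.0817% in the outermost window, 2.22% at -600 to -501 and 7.29% in the innermost, reaching 8.80% at the inner edge. The 2 profiles crossed repeatedly between -934 and -895 and not again within the shoulder. Outside the shoulder the difference was -0.744% from -2000 to -1001, 12.4% from -200 to -1 and 9.02% over the mirrored downstream stretch. A gain of 5% or more was found at 128 of 800 shoulder positions (16%), below the 26.1% of the whole profile.

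The neuronal rise across the shoulder was steeper with SAHA, at a log2 of 0.65 against 0.55 with vehicle, a difference of 0.10 (interval 0.093 to 0.11). Over own input SAHA nuclei stood at 1.98 and vehicle nuclei at 1.84, also 0.10 apart in log2 (interval 0.093 to 0.11). The SAHA input was lower by a log2 of 0.061 (-0.061), and the difference over own input went from 2.04% in the outermost window to 15.5% in the innermost. For 6 of the 15 input pairs the difference was smaller than between the 2 ChIP libraries without input. The neuronal shoulder difference for ChIP alone was thus within the range of input differences, although it exceeded its counting error.

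In non-neuronal nuclei the ChIP signal was higher with SAHA along the whole shoulder. Vehicle gave a mean of 9.39 and SAHA one of 9.84, higher by 4.80% (log2 0.068, interval 0.064 to 0.072). By window it went from 3.73% in the outermost to 5.65% in the next to innermost and 5.45% in the innermost. Outside the shoulder it was 2.75% from -2000 to -1001, 5.19% from -200 to -1 and 5.57% over the mirrored downstream stretch. A gain of 5% or more was found at 328 of 800 shoulder positions (41%), against 30.8% of the whole profile. This was a nearly even lift, and the log2 rise was 0.62 with SAHA and 0.59 with vehicle (difference 0.024, interval 0.014 to 0.033). In 12 of the 15 input pairs the shoulder means differed by less than these 2 ChIP libraries.

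The sign of the non-neuronal SAHA difference did not hold over own input. The SAHA input exceeded the vehicle input by 0.081 in log2, the ChIP libraries by only 0.068. SAHA nuclei stood at 2.29 times input and vehicle nuclei at 2.31, or -0.013 in log2 (interval -0.020 to -0.0068). By window it was 0.199% in the outermost and -4.08% in the innermost, and it was below 0 at 539 of 800 positions, against 74.9% of the whole profile. The rise over own input was lower with SAHA by a log2 of 0.063 (-0.063), against a higher rise of 0.024 for ChIP alone.

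**Figure D3:**
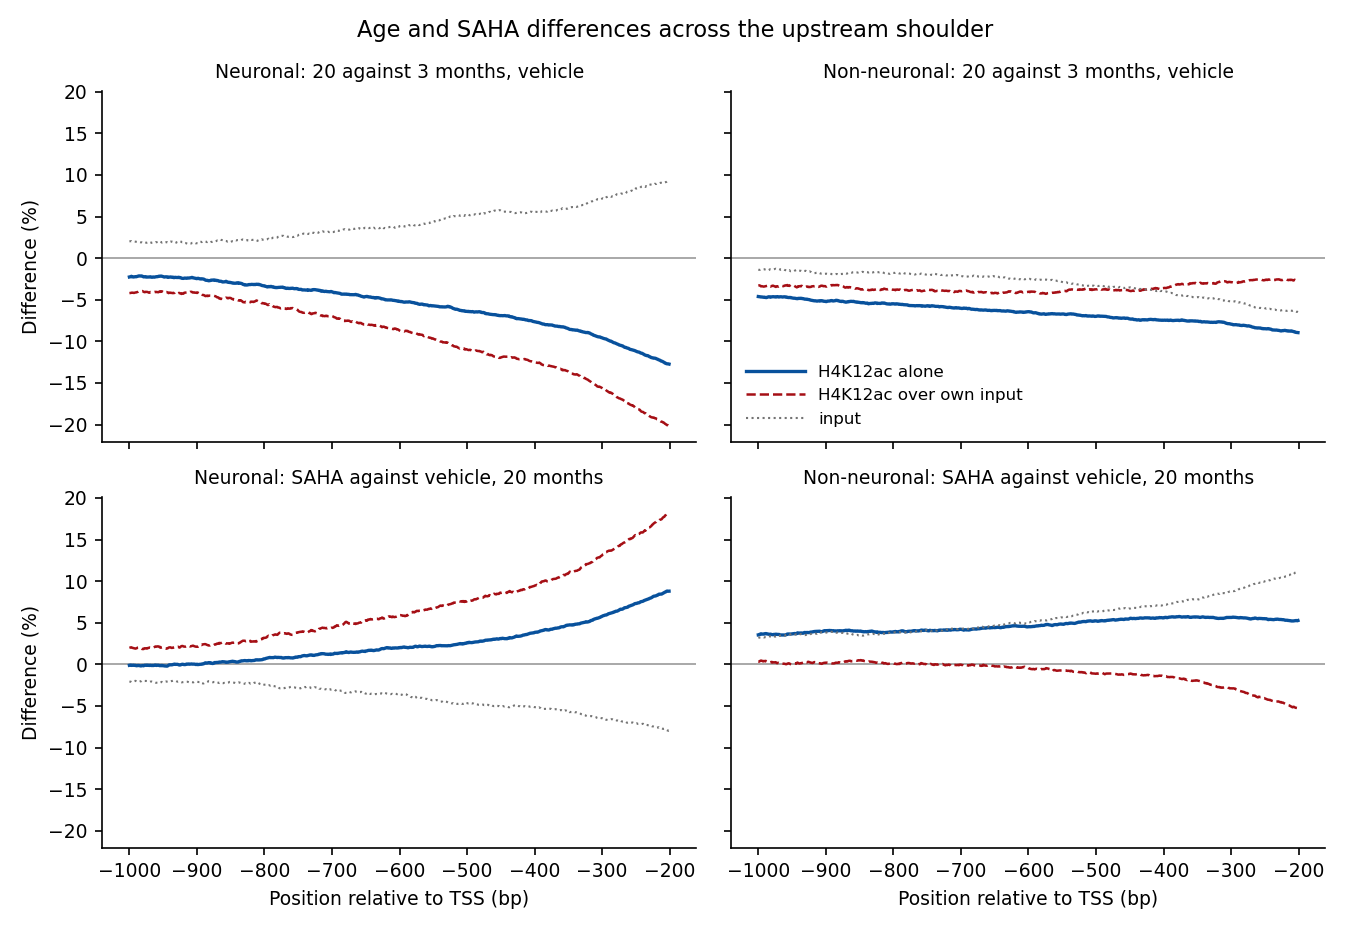
Percent difference in signal against position relative to the TSS, over the shoulder, for 20 against 3 months with vehicle (top) and SAHA against vehicle at 20 months (bottom), in neuronal (left) and non-neuronal nuclei (right). Solid lines are H4K12ac alone, dashed lines H4K12ac over own input and dotted lines the inputs, each from 1 library per group with no error bars. Neuronal H4K12ac differences fan out to -12.7% for age and 8.80% for SAHA at the inner edge, and the non-neuronal SAHA lines for H4K12ac alone and over own input lie on opposite sides of 0 near the inner edge.

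The aged SAHA shoulder was also set against the young one. In neuronal nuclei the ChIP means were 8.02 and 8.32, a difference of -3.55%, which went from -2.36% in the outermost window to -4.70% in the innermost. In non-neuronal nuclei they were 9.84 and 10.1, a difference of -2.22%, from -1.28% to -3.45%. Over own input the log2 differences were -0.053 and -0.068. The SAHA libraries thus lay between the aged vehicle and the young libraries for ChIP alone in both populations, in 8 of 8 windows in non-neuronal nuclei and in 7 of 8 in neuronal nuclei, where the outermost window was the exception. The neuronal ChIP difference exceeded that of 9 of the 15 input pairs, and the non-neuronal one that of 5.

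H4K12ac signal was lower in neuronal than in non-neuronal nuclei over the whole shoulder. The scaling factor of the deposited values is not given, so this need not be a difference in amount per nucleus. The ChIP means were 8.32 and 10.1 at 3 months, 7.80 and 9.39 at 20 months with vehicle, and 8.02 and 9.84 at 20 months with SAHA. The log2 differences were -0.28, -0.27 and -0.30, on average -0.28 ± 0.014 (SD over 3 pairs, exact permutation p = 0.25, adjusted 0.286). Over own input they were -0.23, -0.33 and -0.21, on average -0.25 ± 0.062 (SD over 3 pairs, exact permutation p = 0.25, adjusted 0.286). Neuronal signal was lower in 3 of 3 conditions on both scales, but 3 pairs cannot give a p below 0.25.

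For ChIP alone, the gap between the populations was present along the whole profile and had its widest point inside the shoulder. Neuronal signal was lower by 5% or more at 800 of 800 shoulder positions in each condition, which is the same 100% as for all 4001 positions. The largest gap of the whole profile was -18.8% at position -585 in young, -17.8% at -453 in aged vehicle and -19.9% at -537 in aged SAHA libraries. Over the mirrored downstream stretch the gap was -13.0%, -15.9% and -13.1%, and farther upstream, from -2000 to the shoulder, it was -14.1%, -11.8% and -14.8%. The shoulder gap was -17.4%, -16.9% and -18.5%. Over own input the shoulder gap was -14.5%, -20.2% and -13.6%, and the aged vehicle pair had a wider one outside the shoulder, of -25.9% from -200 to -1. The other 2 pairs had gaps of -4.00% and -0.754% there.

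Part of the gap was shared by the flank and part was not. With each ChIP library divided by its own flank, neuronal nuclei were still lower over the shoulder, the log2 difference being -0.090 ± 0.016 (SD over 3 pairs, exact permutation p = 0.25, adjusted 0.286). In 3 of 3 conditions neuronal nuclei also had the lower ratio of shoulder to mirrored downstream signal, the log2 difference being -0.062 ± 0.039 (SD over 3 pairs, exact permutation p = 0.25, adjusted 0.286). The neuronal share of above-flank signal lying in the shoulder differed by -2.23 ± 0.989 percentage points (SD over 3 pairs, exact permutation p = 0.25, adjusted 0.286).

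The rise across the shoulder had no common direction between the populations. It was higher in neuronal nuclei at 3 months and with SAHA, by a log2 of 0.036 and 0.033, and lower at 20 months with vehicle, by -0.046. The mean was 0.0074 ± 0.046 (SD over 3 pairs, exact permutation p = 1, adjusted 1). The last step as a percentage of the steepest was higher in neuronal nuclei in 3 of 3 conditions, by 24.6 ± 19.7 percentage points (SD over 3 pairs, exact permutation p = 0.25, adjusted 0.286), but the aged vehicle values of 17.6% and 14.7% lay close together. From the outermost to the innermost window the ChIP gap went from -17.0% to -14.9% in young and from -17.9% to -16.0% in SAHA libraries, but from -14.8% to -17.5% in aged vehicle libraries. Over own input it went from -15.3% to -9.61%, from -14.4% to -8.22% and, in aged vehicle libraries, from -16.0% to -23.8%. The gap thus narrowed toward the TSS in the first 2 conditions and widened in the aged vehicle condition on both scales.

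**Figure D4:**
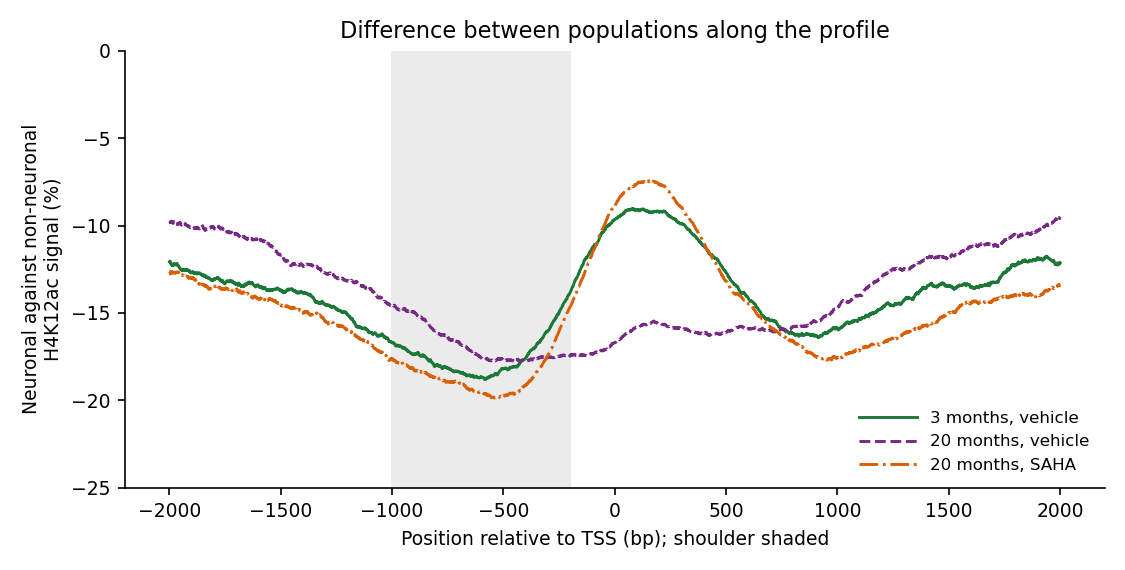
Percent difference of neuronal from non-neuronal H4K12ac signal against position relative to the TSS over the whole profile, with the shoulder shaded. Each line is 1 condition, 1 library per population, without error bars. All 3 lines have their lowest point inside the shoulder, between -19.9% and -17.8%, and at the inner edge they stand at -13.9% (young), -17.4% (aged vehicle) and -14.7% (aged SAHA).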

How the data were processed

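H4K12ac ChIP and input of neuronal and non-neuronal nuclei were taken from 12 libraries, grouped by source name and paired through the titles. The submitters' processing notes name CASAVA 1.8.2, Bowtie2 and build mm10. Each deposited file holds 1 signal column, marked as normalized in the authors' header, for 4001 positions from -2000 to 2001. Not given in the sources used here were the scaling factor, the set of TSS and the treatment of duplicates.

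Means over -1000 to -201 and over windows of 100 bp were computed, the main level being mean ChIP over mean own input. Signal changed from each position to the next by whole multiples of 1 unit (tolerance 0.1 of a unit), taken as 1 read. Each read was taken to cover 300 bp, the lag of the most negative autocorrelation, and the labels give a fragment length of 300 bp. Counting errors use this unit, this length and an over-dispersion of 1.58 to 1.74. They may be too small where TSS lie close together, as a read can then count more than once. The formulas were tested on simulated profiles with read starts drawn independently at each position. That test cannot show that the errors hold where TSS overlap or reads are duplicated. Exact two-sided sign-flip permutation tests were run over pairs, with Benjamini-Hochberg adjustment within families of 3 and 8 tests. Features described in each library were window means, edge values, the maximum, the point midway up and the steepest step. The positions, measures and alternatives were chosen with earlier results of these data known. The plateau, the shares above flank and the 5% limit were added after the profiles had been seen. Python 3.11.15, NumPy 2.4.6, pandas 2.3.3 and Matplotlib 3.10.9 were used.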

Additional observations from a re-analysis of the deposited data

Results flagged for a closer look

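Over own input, the SAHA difference in the shoulder level had opposite signs, with a log2 of 0.10 for neuronal and -0.013 for non-neuronal nuclei, a difference of 0.114 between the populations. It was not tested, with 1 library per group. For ChIP alone both were above 0, at 0.040 and 0.068, and the inputs differed by -0.061 and 0.081. The highest shoulder position also went opposite ways with SAHA, 67 bp toward the TSS in neuronal nuclei and 23 bp away from it in non-neuronal nuclei (-23), a difference of 90 bp that was not tested. The neuronal SAHA value is set by the inner edge of the shoulder, where the signal was still rising. The non-neuronal maxima lay on stretches of 176 (vehicle) and 179 (SAHA) positions within 2% of them. Smoothed over 51 positions these maxima were at -280 with vehicle and -287 with SAHA, and also divided by own input at -280 and -321.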

How the results depend on the processing

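For age and SAHA values the scale for a move was the SD between the 6 inputs (log2 0.037 for the level, 0.042 for the rise). ChIP over own flank for the level, and ChIP alone for the 6-library rise, were added after the data were seen. Of 24 alternative values of the age and SAHA level, 13 stayed within it, 8 moved and 3 reversed. For ChIP alone, the neuronal and non-neuronal age differences were -0.092 and -0.10, and the SAHA differences 0.040 and 0.068 (reversed). With input subtracted they were -0.25, -0.14, 0.15 and 0.057 (reversed), and for ChIP over own flank -0.083 and 0.055 in neuronal nuclei, and 0.029 (reversed) for non-neuronal SAHA. Of 16 values of the age and SAHA rise, 8 stayed, 5 moved and 3 reversed. Divided by own input, the rise differed by -0.22 for age and 0.18 for SAHA in neuronal nuclei, and by 0.010 and -0.063 (both reversed) in non-neuronal nuclei. With input subtracted it was -0.26 and 0.22 in neuronal nuclei and -0.016 (reversed) for non-neuronal SAHA. With 100 bp less at each edge the neuronal age value was -0.086 and the neuronal SAHA value 0.062 (0.10 before), and the population difference in rise was -0.0068 (reversed). The cause was not tested.

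With 1 pair or library left out, ChIP over input was 1.06 to 1.14, the net rise 0.54 to 0.58 and upstream over downstream -0.28 to -0.26, each with an exact permutation p = 0.0625, the smallest with the remaining pairs. With 1 condition left out, neuronal against non-neuronal was -0.28 to -0.22 for the level and -0.0068 to 0.034 for the rise. The latter reversed without the young (-0.0068) or without the SAHA condition (-0.0053). Division by each library's own flank lowered the population difference from -0.25 to -0.079, and input subtraction raised it to -0.51. The 18 alternative positions of maxima and midpoints moved by less than 51 bp. This limit is wider than the population differences in midpoint (45, 17 and 46 bp) and the non-neuronal SAHA shift of the maximum (-23 bp). It therefore cannot show that these hold. ChIP alone can give no value for ChIP over input, and division by input repeats the main net rise.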
